A study of Mus musculus with 6 samples.

Results

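Macrophage and complement genes were followed in the stria vascularis of mice with a conditional mutation of Esrrb, the gene of estrogen-related receptor beta (written Errb in the labels), and of wild-type mice. A list of 36 such genes was used, and a gene was measured where a probe set (the group of array probes designed for 1 transcript) carried that symbol alone in the platform annotation. On that basis 35 of the 36 genes were measured, among 18193 genes in all, each by the probe set that was brightest on average. Complement C3 found no such probe set and is not analysed here. Total RNA came from 3 wild-type and 3 Errb mutant pools of 10 mice each, hybridised to 1 Affymetrix array per pool. The sample labels name stria vascularis, the potassium-secreting epithelium of the cochlear lateral wall with its capillaries and pigment cells, whereas the design text speaks of inner ears. Only wild-type replicate 1 carries an age, postnatal days 3 to 5. Which cells lost the gene, by which deleter strain, and on which genetic background is not stated in the labels.

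Resident macrophages lie along the capillaries of the stria, where they are called perivascular macrophages, and take up debris and melanin. Their survival depends on the receptor Csf1r, and the transcription factor Spi1 (PU.1) drives much of their gene programme. C1q, assembled from the products of C1qa, C1qb and C1qc, starts the classical complement cascade, and tissue macrophages are a main source of it. In RNA from whole tissue, fewer macrophages and less RNA per macrophage cannot be told apart.

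Values are log2 expression, and a difference is mutant minus wild type between the arrays of 1 replicate number, here called a pair. Means of differences are given ± SD over the 3 pairs (n = 3), and a difference of 1 is a 2-fold change. Adjusted p-values come from limma across all 45037 probe sets, from a fit on genotype alone (unpaired) and from one that also blocks on the replicate number (paired). The labels describe separate pools and no more, so the p-values rest on how far these 6 arrays spread. An exact permutation test of 3 arrays against 3 cannot go below a two-sided p of 0.1.

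Esrrb, the targeted gene, was lower in every pair by 1 of its 3 probe sets, the dimmest. Its brightest probe set read 9.68, 10.60 and 9.96 in wild type and 9.76, 10.28 and 9.98 in the mutant (mean difference -0.07 ± 0.21), and the next averaged -0.18 ± 0.43. The dimmest differed by -0.05, -0.29 and -0.93 (mean -0.42 ± 0.46), and none of the 3 passed. Where these probes lie relative to the deleted stretch is not stated in the labels, so they do not check which arrays are mutant. Array medians ran from 6.07 to 6.95 and differed by at most 0.04 within a pair as rounded, so levels are compared within pairs. Exactly equal values between arrays occurred within pairs (32.1%, 2.25% and 2.58% of genes) and in 0 genes for the 12 combinations of arrays from different pairs. Whether the arrays were normalized pair by pair is not stated and was not tested. If they were, the spread between arrays of 1 genotype, and with it both fits, would include that processing. On both arrays of pair 1 the Gapdh controls read higher at the 3' than at the 5' end by 2.28 and 2.57, against -0.04 to 0.51 on the other 4 arrays. By Gapdh, wild type and mutant lay further apart in pair 3, at -0.04 and 0.51, than in pair 1. The Actb controls gave 1.01 and 1.35 in pair 1 and 0.18 and 0.49 in pair 3. Markers of the stria were present in wild type, with Dct at 12.32 ± 0.42 and Kcne1 at 9.70 ± 0.48 (SD, n = 3). Kcne1 was lower by 3.97 to 4.52 in each mutant (adjusted p = 0.0071 unpaired, 0.00373 paired).

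No macrophage or complement gene passed the test. Most were slightly higher in the mutant of pairs 2 and 3 and close to equal in pair 1. The median difference over the 35 genes was -0.01 in pair 1, 0.31 in pair 2 and 0.22 in pair 3, where the median of all genes was 0.00, 0.00 and 0.02. By mean difference 30 of the 35 were higher and 5 lower, between -0.11 for Cybb and 0.43 for Lyve1, while 51.3% of all genes were higher. In pair 1 only 8 genes were higher, 18 were lower and 9 were exactly equal as deposited. Equal values made up 32.1% of all genes in that pair and 25.7% of the 35.

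With limma 0 of the 35 genes passed at an adjusted p of 0.05, unpaired or paired. Among all genes 0.0055% passed unpaired and 0.148% paired, shares too small to read anything from a count of 0 in 35. Every adjusted p was 1 unpaired, and paired they ran from 0.533 for Ptprc to 0.997 for Spi1. Both fits were run on simulated data with differences of 1 or 2 put in and noise of the same size for every probe set. The unpaired fit missed the differences put in, so its count of 0 says nothing about these genes. The paired fit found nearly all of them in that setting. On the real arrays the marginal cell genes Bsnd (-1.05 ± 0.18) and Atp1b2 (-1.40 ± 0.29) did not pass it (limma adjusted p = 0.063 for each, paired). Another 4 genes of that list did pass. The simulation therefore does not give the share of such differences that the paired fit finds on these arrays. The highest mean difference of the 35 genes was 0.43, and differences of that size were not simulated. Without adjustment, 0 of the 35 genes had an unpaired p under 0.05, against 0.308% of all genes. Paired, 6 did (17.1%), namely Ptprc, C1qb, Laptm5, C3ar1, Pf4 and F13a1, with all 6 higher and 0 lower. Among all genes the shares were 4.04% on the higher and 3.31% on the lower side. Counted without a test, 8 of the 35 (22.9%) were higher in every pair, against 12.9% of all genes, and 0 were lower in every pair, against 9.03%. Among the 22 members with a single probe set, 2 (9.09%) were higher in every pair. Without replicate 1, where equal values are common, 26 of the 35 (74.3%) were higher in both remaining pairs, against 30.0% of all genes. Without replicate 2 or without replicate 3 it was 8 (22.9%), against 19.1% and 19.5% of all genes. As deposited, the groups failed to overlap in 1 of the 35 (2.86%), Laptm5, and in 1.07% of all genes. Relative to the array median Laptm5 overlapped.

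**Figure D1:**
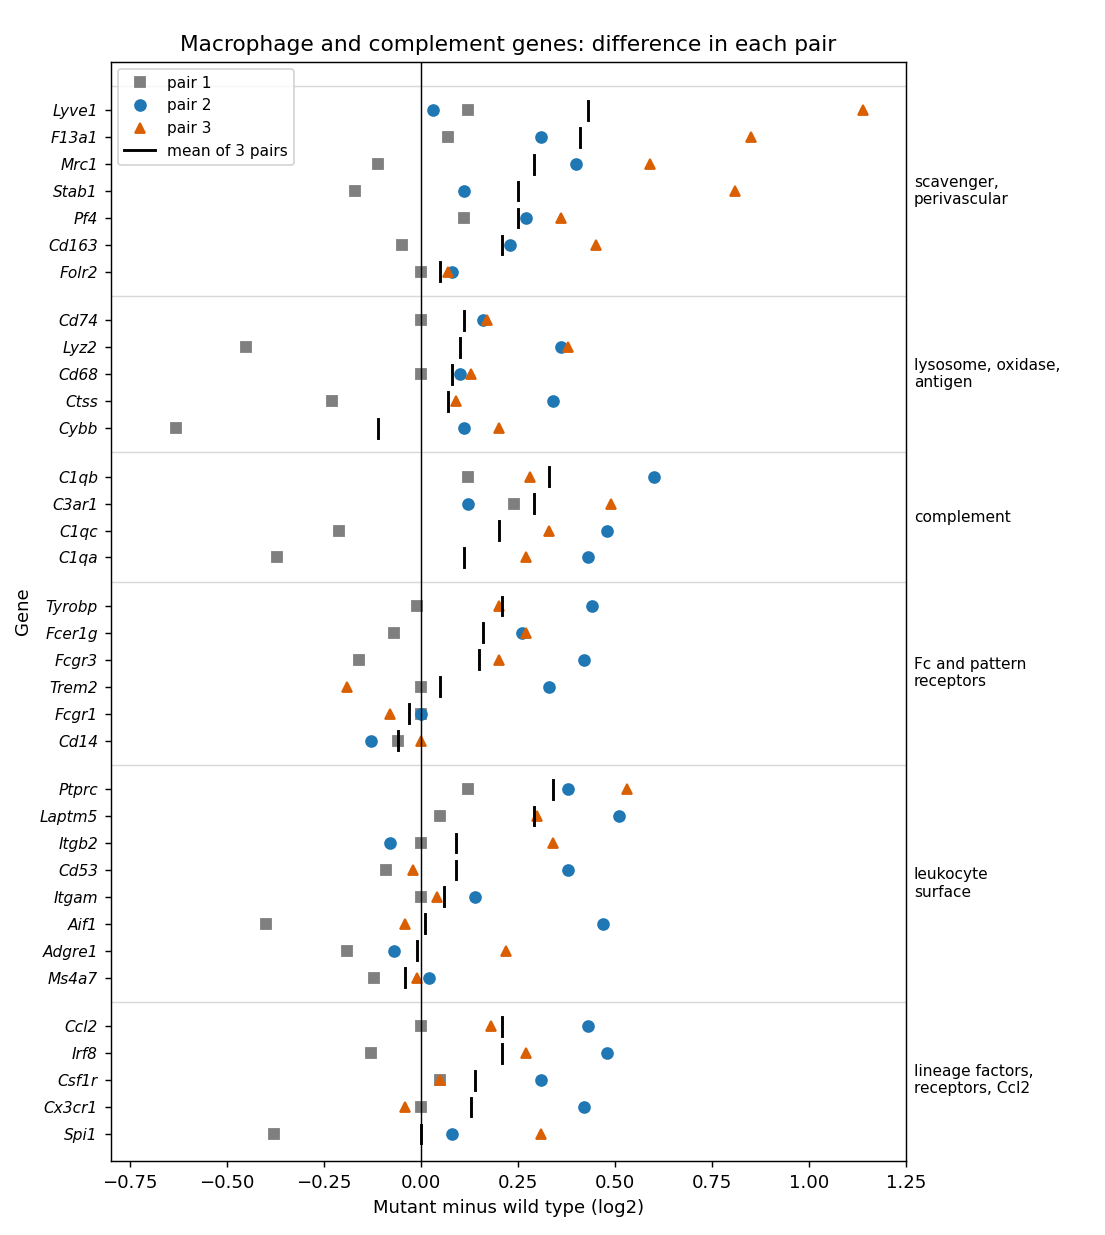
Difference between mutant and wild type (horizontal axis, log2) in pair 1 (grey squares), pair 2 (blue circles) and pair 3 (orange triangles) for the 35 genes, grouped by role, with the mean as a black bar. Of the squares 27 lie at or left of 0, while 32 circles and 28 triangles lie right of it, and Lyve1, F13a1 and Stab1 have triangles beyond 0.8.

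The lineage factors and growth factor or chemokine receptors, with Ccl2, had medians of 0.00, 0.42 and 0.18 in pairs 1 to 3. Csf1r, the receptor for the growth factors that keep macrophages alive, stood at 11.06, 11.61 and 11.17 in wild type and at 11.11, 11.92 and 11.22 in the mutant. The mutant was higher in every pair, by 0.05, 0.31 and 0.05, a mean of 0.14 ± 0.15 (adjusted p = 0.751, paired). The SD of the wild-type arrays, 0.29, also holds differences in level between pairs. The other 2 probe sets of Csf1r averaged 0.13 and 0.09 and were lower in the mutant of pair 1. Spi1 was at 6.56, 7.35 and 6.95 in wild type and 6.17, 7.43 and 7.27 in the mutant, and its mean difference was 0.00 ± 0.35. The mutant was thus lower in pair 1 and higher in pairs 2 and 3. Irf8, a transcription factor of monocytes and macrophages, differed by -0.13, 0.48 and 0.27. Cx3cr1, the fractalkine receptor, was exactly equal in pair 1 at 8.55 and differed by 0.42 and -0.04 in the other pairs. A dimmer Cx3cr1 probe set differed by -0.29, 0.39 and -1.39, so the probe sets gave means of opposite sign (0.13 and -0.43). Ccl2, the monocyte-attracting chemokine, was equal in pair 1 and higher by 0.43 and 0.18 in the others. By mean, all 5 genes of this role were at or above 0 as deposited, and Spi1 fell just below 0 (-0.01) after quantile normalization of the arrays.

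Surface proteins of leukocytes were split between a few higher genes and a majority near 0. Ptprc encodes CD45, the phosphatase on all white blood cells. Its values were 6.58, 6.80 and 6.26 in wild type and 6.71, 7.18 and 6.79 in the mutant, higher in every pair though the genotypes overlapped. The mean difference of 0.34 ± 0.21 had the smallest p of the 35 genes (adjusted p = 0.533, paired) with 95% limits of 0.10 and 0.59 when paired. This probe set is of the class (x, s or a) that can hybridise to more than 1 transcript. The other Ptprc probe set, which is dimmer and not of that class, differed by 0.00, 0.10 and -0.09, a mean of 0.00. Laptm5, a lysosomal membrane protein of blood cells, was at 9.14, 9.18 and 8.92 in wild type and 9.19, 9.69 and 9.22 in the mutant. As deposited, the lowest mutant value lay just above the highest wild-type value. Relative to the array median the genotypes overlapped, at 3.07, 2.23 and 2.49 in wild type and 3.10, 2.75 and 2.84 in the mutant. The other 4 Laptm5 probe sets averaged -0.02 to 0.05, and the best expressed one is of the same class as that of Ptprc. Adgre1, which encodes the macrophage marker F4/80, differed by -0.19, -0.07 and 0.22. Aif1, the gene of the microglial marker Iba1, differed by -0.40, 0.47 and -0.04, so that its mean of 0.01 hides opposite pairs. Cd53, a tetraspanin of leukocytes, was higher in pair 2 alone (0.38), and Ms4a7, a membrane protein of mature macrophages, lay within 0.12 of 0 in each pair. The integrin subunit genes Itgam (CD11b, 0.06 ± 0.07) and Itgb2 (CD18, 0.09 ± 0.22) showed little difference. Itgam lay at the 13.8 percentile of its arrays on average, a level at which signal over background is not given.

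Among the 6 receptors and adaptors for antibody and debris, Tyrobp, Fcer1g and Fcgr3 were higher in both pairs 2 and 3, and Fcgr1, Cd14 and Trem2 were not. Tyrobp, the signalling adaptor of Trem2 and related receptors, was at 9.06, 9.39 and 9.0 in wild type and 9.05, 9.84 and 9.20 in the mutant. It was equal within 0.01 in pair 1 and higher by 0.44 and 0.20 in the others (mean 0.21 ± 0.23). Fcer1g, the Fc receptor gamma chain, differed by -0.07, 0.26 and 0.27, and Fcgr3, a low-affinity receptor for immunoglobulin G, by -0.16, 0.42 and 0.20. The high-affinity receptor Fcgr1 was nearly level (-0.03 ± 0.05), as was Cd14, the lipopolysaccharide co-receptor (-0.06 ± 0.06). For Fcgr1 the 95% interval of the paired fit, -0.19 to 0.14, is narrow. Trem2, a lipid-sensing receptor of macrophages, differed by 0.33 and -0.19 in pairs 2 and 3 and was equal in pair 1.

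Complement genes of the C1q complex were split between pair 1 and the rest. C1qa was at 8.14, 9.73 and 9.44 in wild type and 7.76, 10.16 and 9.70 in the mutant. It was lower in the mutant of pair 1 (-0.37) and higher in pairs 2 and 3 (0.43 and 0.27). C1qc went the same way, with 7.76, 9.63 and 9.18 in wild type, 7.55, 10.11 and 9.51 in the mutant, and differences of -0.21, 0.48 and 0.33. C1qb was higher in every pair by its best expressed probe set, from 8.75, 9.30 and 9.06 in wild type to 8.88, 9.89 and 9.34 in the mutant. Its mean of 0.33 ± 0.24 had 95% limits of 0.06 and 0.60 (adjusted p = 0.606, paired). In pair 1 the 3 probe sets of C1qb differed by 0.12, 0.06 and -0.38. In pair 2 the values were 0.60, 0.43 and 0.54, and in pair 3 they were 0.28, 0.23 and 0.17. Within a single gene they therefore pointed the same way in pairs 2 and 3 and opposite ways in pair 1, the pair with the wide Gapdh gap. The 2 brighter probe sets are of the x class, which can hybridise to more than 1 transcript, and the dimmest is not. Without x, s and a probe sets C1qb averaged 0.11 instead of 0.33. The parts of RNA quality and of probe class in this were not tested. Without replicate 1, C1qa, C1qb and C1qc averaged 0.35, 0.44 and 0.40.

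C3ar1, the receptor for the C3a fragment, was at 6.93, 7.70 and 7.42 in wild type and 7.17, 7.82 and 7.92 in the mutant, higher by 0.24, 0.12 and 0.49 (mean 0.29 ± 0.19, adjusted p = 0.611, paired). One further C3ar1 probe set was also higher in every pair (0.36 on average), and the third was not (-0.09). All 4 measured complement members had means above 0, also after quantile normalization and median centring, and none passed.

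**Figure D2:**
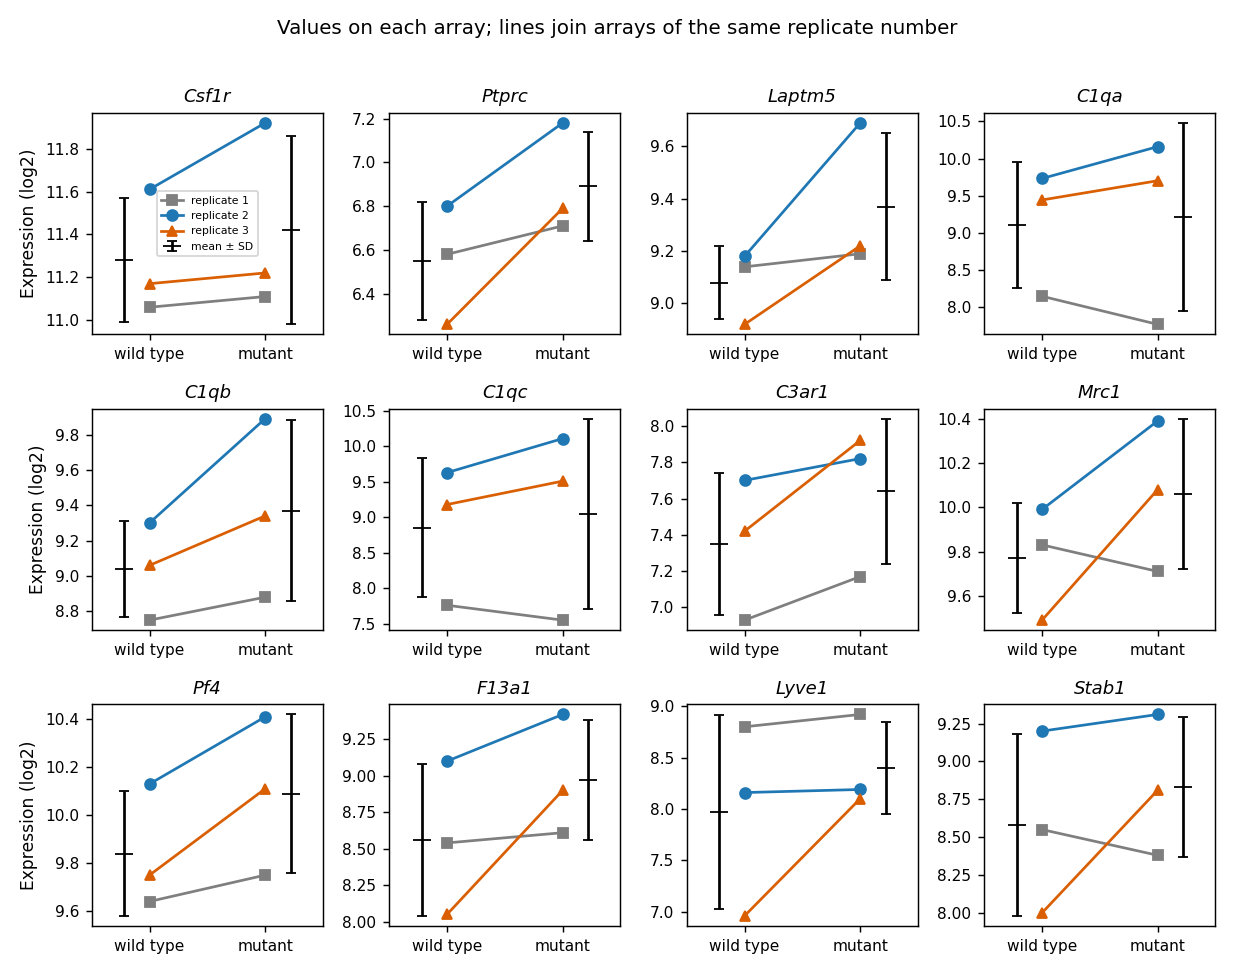
Log2 expression (vertical axis, a scale per panel that does not start at 0) on the 6 arrays for 12 genes, with lines joining wild type and mutant of the same replicate number and black bars giving the mean ± SD of 3 arrays. The distance between replicates exceeds most slopes, and replicate 1 (grey) slopes down for C1qa, C1qc, Mrc1 and Stab1.

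Lysosomal, oxidase and antigen presentation genes stayed within 0.11 of 0 by mean. Lyz2, the macrophage lysozyme, was at 8.46, 9.20 and 8.11 in wild type and 8.01, 9.56 and 8.49 in the mutant. Its differences of -0.45, 0.36 and 0.38 left a mean of 0.10 ± 0.47. Cybb, the catalytic subunit of the phagocyte oxidase, differed by -0.63, 0.11 and 0.20, which made it the lowest of the 35 by mean (-0.11 ± 0.45). Without replicate 1 its mean was 0.15. Ctss, a lysosomal cysteine protease, differed by -0.23, 0.34 and 0.09. Cd68, a lysosomal glycoprotein, was equal in pair 1 and differed by 0.10 and 0.13 in the others. Cd74, the invariant chain of class II molecules, likewise was equal in pair 1 and differed by 0.16 and 0.17. In both pairs 2 and 3 all 5 genes of this role were higher in the mutant, by 0.09 to 0.38.

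Scavenger receptor and perivascular genes held the 2 highest mean differences of the 35, Lyve1 and F13a1, and these came mainly from pair 3. Lyve1, a hyaluronan receptor of perivascular macrophages and lymphatic vessels, was at 8.80, 8.16 and 6.96 in wild type and 8.92, 8.19 and 8.10 in the mutant. The mutant was higher in each pair, by 0.12, 0.03 and 1.14. F13a1, the coagulation factor XIII A chain made by resident macrophages, was at 8.54, 9.10 and 8.05 in wild type and 8.61, 9.42 and 8.90 in the mutant, higher by 0.07, 0.31 and 0.85. Stab1, a scavenger receptor shared with sinusoidal endothelium, was at 8.55, 9.20 and 8.0 in wild type and 8.38, 9.31 and 8.81 in the mutant, a difference of -0.17, 0.11 and 0.81.

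For these 3 genes wild-type replicate 3 was the lowest of the 6 arrays relative to the array median, at 0.53 for Lyve1, 1.63 for F13a1 and 1.58 for Stab1. The other 5 arrays lay at 1.21 to 2.84 for Lyve1, 2.16 to 2.53 for F13a1 and 2.25 to 2.48 for Stab1. Without replicate 3 the means were 0.07 for Lyve1, 0.19 for F13a1 and -0.03 for Stab1, down from 0.43, 0.41 and 0.25. The second Lyve1 probe set also had most of its difference in pair 3 (0.73, against 0.10 and 0.08). The paired adjusted p was 0.750 for Lyve1, 0.689 for F13a1 and 0.763 for Stab1.

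Pf4, a chemokine of platelets that resident macrophages also make, was steadier. Its values were 9.64, 10.13 and 9.75 in wild type and 9.75, 10.41 and 10.11 in the mutant, higher by 0.11, 0.27 and 0.36. The mean of 0.25 ± 0.13 had 95% limits of 0.05 and 0.45 (adjusted p = 0.588, paired). Mrc1, the mannose receptor CD206, was at 9.83, 9.99 and 9.49 in wild type and 9.71, 10.39 and 10.08 in the mutant, a difference of -0.11, 0.40 and 0.59. Cd163, the haemoglobin scavenger receptor, had differences of -0.05, 0.23 and 0.45. Folr2, a folate receptor of resident macrophages, differed by 0.08 and 0.07 in pairs 2 and 3 and not in pair 1. All 7 genes of this role were higher in the mutant in pairs 2 and 3, under quantile normalization and median centring their means were above 0 as well, and none passed.

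The size of a difference in pair 2 said little about its size in pair 3. Across the 35 genes the correlation between both was -0.04, against 0.41 across all genes; genes of 1 array share its RNA and are not independent. Complement members had a median of 0.46 in pair 2 and 0.30 in pair 3, while scavenger and perivascular genes had 0.23 and 0.59. The difference between these roles was not tested.

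Precision differed between the fits. The 95% interval of a difference reached 0.84 to either side in the unpaired fit and 0.27 in the paired fit, as medians over the 35 genes. In the paired fit the highest upper bound was 1.01, for Lyve1, and the lowest lower bound was -0.55, for Cybb. For Csf1r the interval was -0.08 to 0.35, for C1qa -0.31 to 0.52 and for Mrc1 -0.08 to 0.66.

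**Figure D3:**
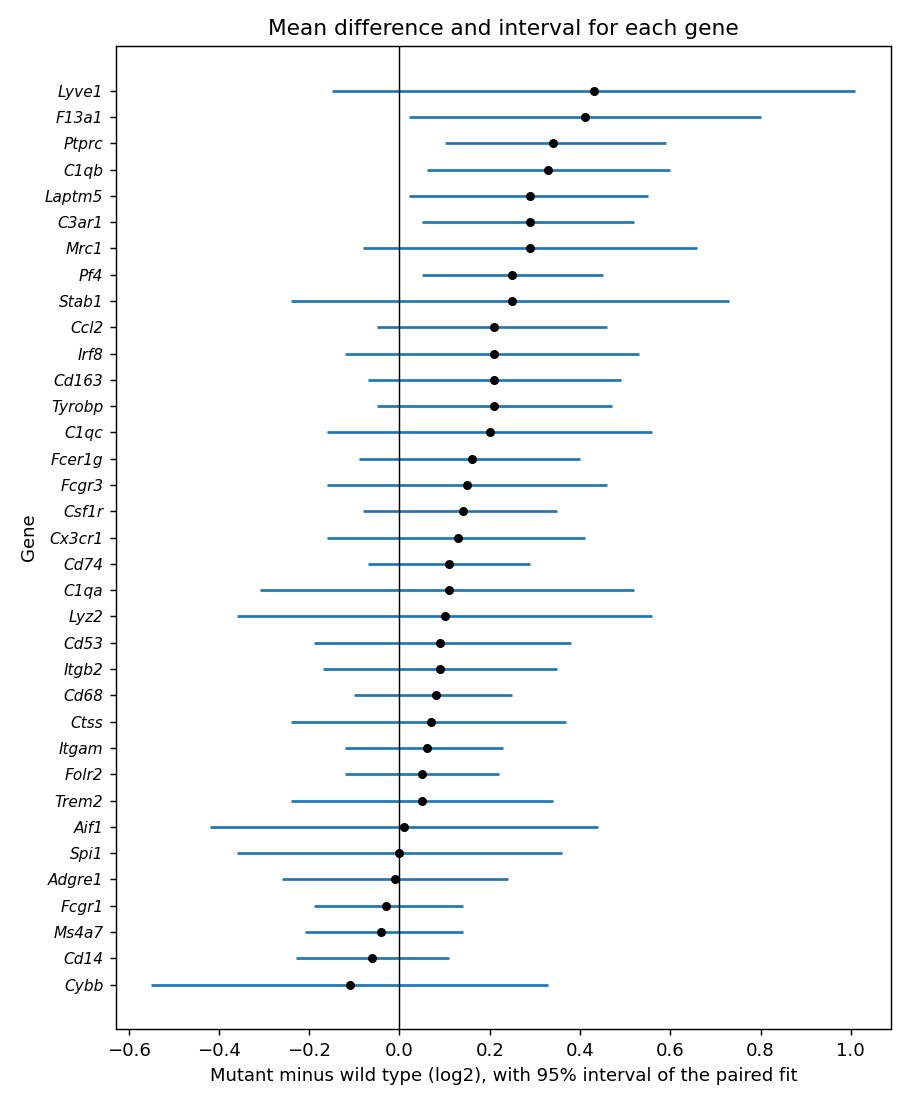
Mean difference (dots) and 95% interval of the paired fit (lines) in log2 for the 35 genes, ordered by mean. The lines of 6 genes (F13a1, Ptprc, C1qb, Laptm5, C3ar1 and Pf4) lie above 0 before any correction for the number of probe sets, and none of them has an adjusted p under 0.05.

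Promoter sequence is shown for members that were higher in every pair by their brightest probe set, which further probe sets did not always share. Of the 8, 6 had a window in the RefSeq promoter table (GRCm38.p6), and for 4 the window ended at the outer edge of the gene model. The 100 bases before the start of each are printed 5' to 3', and capitals mark GAGGAA or its reverse complement TTCCTC, the core bound by PU.1.

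C1qb (chr4:136886201-136886300, minus strand): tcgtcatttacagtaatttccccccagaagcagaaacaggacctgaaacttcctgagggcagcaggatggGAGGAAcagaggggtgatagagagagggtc

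C3ar1 (chr6:122856158-122856257, minus strand): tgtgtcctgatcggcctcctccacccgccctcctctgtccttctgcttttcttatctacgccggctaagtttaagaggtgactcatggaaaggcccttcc

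F13a1 (chr13:37050245-37050344, minus strand): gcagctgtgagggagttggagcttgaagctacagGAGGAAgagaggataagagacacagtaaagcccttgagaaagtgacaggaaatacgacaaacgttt

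Pf4 (chr5:90772335-90772434, plus strand): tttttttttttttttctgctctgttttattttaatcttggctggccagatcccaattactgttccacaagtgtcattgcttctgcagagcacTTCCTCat

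Matches began 30, 66 and 8 bases before the start of C1qb, F13a1 and Pf4, and the C3ar1 stretch held none. The 250 bases before another listed start of F13a1, not shown here, held none either. In the 250 bases before each start, 17 of 31 windows of the members (54.8%) held the PU.1 core on either strand, against 23.3% of 32851 windows of all genes. The windows belonged to 25 of the 35 genes, and 16 of these had a match. The core bound by estrogen-related receptors, AAGGTCA on either strand, was in 1 member window, that of Trem2, and in 4.08% of all windows. A match describes these letters alone and is no measure of binding.

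Other genes of the pathway, taken from fixed lists, had medians within 0.09 of 0 in each pair, as follows. Of 34 further complement components, receptors and regulators 27 were measured, 11 higher and 16 lower by mean, and 0 passed in either fit. Their median was 0.00, -0.06 and -0.09 in pairs 1 to 3, and 9 of the 27 (33.3%) were lower in every pair, against 9.03% of all genes, with 4 (14.8%) higher in every pair, against 12.9%. Clu, the chaperone clusterin that restrains the terminal complex, differed by -0.25 ± 0.20, Cd93, a receptor of endothelial and myeloid cells, by -0.22 ± 0.03 and Cr1l, a membrane complement regulator of rodents, by -0.15 ± 0.09. Picked after their values were seen, the widest differences were those of Vtn, the gene of vitronectin (-0.91 ± 0.41, adjusted p = 0.281, paired), and Cd55, decay-accelerating factor (-0.79 ± 0.26, 0.197). All 3 probe sets of Cd55 were lower in each pair, and the second one of Vtn averaged -0.65.

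A wider list of macrophage and microglia genes was measured in 46 of 50, with medians of 0.00, 0.04 and 0.05. By mean 27 were higher and 19 lower, with 0 passing in either fit. Its best expressed genes were shared with many cell types, the cathepsins Ctsl (-0.13 ± 0.23) and Ctsb (0.03 ± 0.09) and Apoe (-1.07 ± 1.39). Of the 46, 6 (13%) were higher in every pair, close to the 12.9% of all genes, and 4 (8.7%) were lower, close to 9.03%. The higher ones included Ms4a6d, a membrane protein of monocytes and macrophages (0.56 ± 0.17), the lysosomal protease Ctsc (0.43 ± 0.09), Ly86, a partner of the receptor Cd180 (0.42 ± 0.22), and the transcription factor Sall1 (0.52 ± 0.08). Gpnmb, a glycoprotein of phagocytes and melanosomes, was lower in every pair (-0.66 ± 0.10), as were Tmem119, a marker of microglia (-0.35 ± 0.19), and Tlr4, the lipopolysaccharide receptor (-0.22 ± 0.30). These 7 were picked after their values were seen, and their paired adjusted p ran from 0.108 to 0.750. The further probe sets averaged 0.44 and 0.05 for Ms4a6d, 0.25 and 0.08 for Ctsc, 0.02 for Sall1, -0.07 for Gpnmb and -0.18 to 0.06 for Tlr4.

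Growth factors, chemokines and class II genes had medians near 0, with single genes further off. The 15 growth factor and receptor genes had medians of 0.00, -0.02 and 0.04, with Csf1, the ligand of Csf1r, at 0.16 ± 0.16, Kitl at -0.07 ± 0.31 and Ccr2, the receptor for Ccl2, at -0.09 ± 0.18. Il34, the other ligand of Csf1r, was lower in every pair (-0.28 ± 0.06, adjusted p = 0.450, paired). Csf2rb, a shared receptor chain of myeloid growth factors, was higher in every pair (0.52 ± 0.36, 0.524), though its other probe set averaged 0.04. The 16 chemokines had medians of 0.00, 0.01 and -0.02, Cxcl12 being at 0.02 ± 0.16. Ccl12, a monocyte-attracting chemokine, was higher by 0.22, 0.69 and 0.66 (adjusted p = 0.398, paired). Il34, Csf2rb and Ccl12 were picked after their values were seen. Of 5 class II genes H2-Aa differed by 0.89, 0.68 and 0.32 (adjusted p = 0.317, paired), but its 3 other probe sets averaged 0.07 to 0.15, and H2-Eb1 was at 0.01 ± 0.02. No gene of these lists passed in either fit.

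Markers of the other cells in the tissue are given for comparison. Medians of the neutrophil list (13 genes) were 0.00, -0.10 and 0.04, those of lymphocytes (10) 0.00, -0.08 and -0.05, and those of mast cells and basophils (9) 0.00, -0.02 and -0.07. Osteoclast genes, which come from the same lineage as macrophages, were at 0.12, 0.04 and -0.01 (10 genes, 8 higher by mean), with Ctsk at 0.16 ± 0.16 and Mmp9, a gene also listed for neutrophils, at 0.49 ± 0.49. Endothelial genes were lower by mean in 10 of 10 (medians -0.30, -0.20 and -0.12), with Cldn5 at -0.42 ± 0.41, while 51.3% of all genes were higher. Of the 10, all were lower in pair 1, 8 in pair 2 and 5 in pair 3, and 7 by mean without replicate 1. Erythroid genes were lower by mean in 4 of 4 (medians -0.07, -0.32 and -0.17), with Alas2 at -0.63 ± 0.41. No gene of these 6 lists passed. Strial marginal cell genes were lower by mean in 7 of 7 (medians -1.62, -1.51 and -1.19), and Kcne1, Kcnq1, Slc12a2 and Atp13a5 passed in the paired fit. The list holds Esrrb itself, which averaged -0.07 ± 0.21. The other 6 (85.7%) were lower in every pair, against 9.03% of all genes. Pigment cell genes were lower in 6 of 8 (medians -0.53, -0.88 and -0.69) with none passing. The part of these lower lists in the higher macrophage values was not tested.

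**Figure D4:**
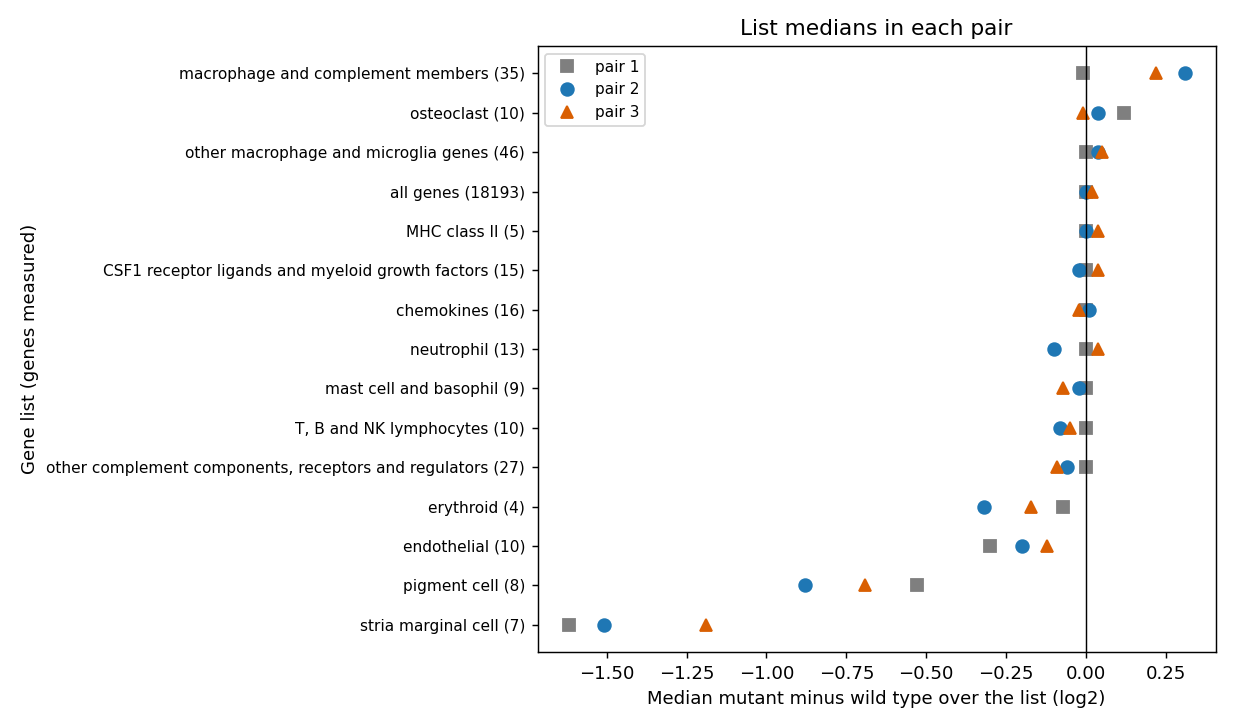
Median difference between mutant and wild type over each gene list (horizontal axis, log2) in pairs 1 to 3, with the number of genes measured in brackets. The 35 macrophage and complement genes lie at 0.31 and 0.22 in pairs 2 and 3, the wider macrophage list at 0.04 and 0.05, and marginal cell genes beyond -1.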

How the data were processed

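The deposited values are log2 expression per probe set. The submitters' processing notes name RMA, and no version is given there. That the scale is log2 follows from the range of the deposited values (2.33 to 14.64), which were used unchanged. Of 45101 probe sets 64 controls were left out. Symbols came from the platform annotation: 34945 probe sets had 1, 932 several and 9160 none.

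Differences were fitted with limma 3.58.1 in R 4.3.3 (lmFit, eBayes, two-sided) on genotype alone, with Benjamini-Hochberg adjustment and a threshold of 0.05. The paired fit adds the replicate number, which comes from the labels. Same-numbered arrays deviated together from their genotype's mean (correlations of 0.879, 0.818 and 0.746 for pairs 1 to 3, where more than 0.1 was asked). Exactly equal values occurred within pairs alone; whether each pair was normalized by itself, which could also raise these correlations, is not stated and was not tested. The fits were tested on simulated data.

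Members, lists and roles were chosen with earlier results of these data known. Named were all measured members and, from each other list, genes that passed or else up to 3 with the highest level; others are marked as picked later. Alternatives were quantile normalization, median centring, a filter on low values, trend and robust variances, other choices of probe set and leaving out arrays or pairs. The number of arrays limits the precision.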

Additional observations from a re-analysis of the deposited data

How the results depend on the processing

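Under the replicate block and the other 16 settings run, 0 of the members with a value passed (limma, adjusted p under 0.05). The count higher by mean was 30 with the replicate block, 28 after quantile normalization, 31 after median centring and 24 of 30 without x, s and a probe sets, and with all 6 arrays the median stayed between 0.11 and 0.14. Leaving out 1 array shifts levels between pairs. The unpaired median then ran from -0.14 without Errb mutant replicate 2 to 0.42 without Errb mutant replicate 1, and the count higher from 12 to 35 over these settings. Without wild type replicate 1 they were -0.06 and 16. The median of all genes moved too, to -0.23, 0.20 and -0.19 in these settings. Added after seeing the data, the paired fit without replicate 1, 2 or 3 gave medians of 0.27, 0.06 and 0.09 and 33, 23 and 27 higher, and 26, 8 and 8 members were higher in every remaining pair (30.0%, 19.1% and 19.5% of all genes). Laptm5 changed from 0.29 to -0.02, Ptprc from 0.34 to 0.00 and C1qb from 0.33 to 0.11 without x, s and a probe sets. With the mean of its probe sets Cx3cr1 changed from 0.13 to -0.15. The sign of the mean changed for 3 members without replicate 1 (among them Cybb), for 9 without replicate 2 (among them C1qa, Lyz2, Ctss and Cx3cr1) and for 5 without replicate 3 (among them Stab1 and Itgb2).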

Other observations

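Apoe and Tgfb1, both products of macrophages among other cells, had differences of more than 2 on the log2 scale in pair 1 alone. Apoe was at 10.73, 12.42 and 12.33 in wild type and 8.07, 12.35 and 11.85 in the mutant, a difference of -2.65, -0.07 and -0.48, and it has no second probe set in the annotation. The best expressed probe set of Tgfb1 was at 7.93, 7.86 and 6.61 in wild type and 5.76, 7.88 and 7.38 in the mutant, a difference of -2.16, 0.02 and 0.77, while its other probe set differed by 0.10, -0.18 and 0.12. Neither passed (limma adjusted p = 0.732 and 0.835, paired), and both were picked after their values were seen.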
